A study of Mus musculus with 6 samples.

Results

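The transcripts of the D cyclins, of the kinases they work with and of the inhibitors of these kinases were followed in M2 macrophages (Mφs). The set has 10 genes, taken by symbol from the 41549 genes of the deposited table: the cyclins Ccnd1, Ccnd2 and Ccnd3, the kinases Cdk4, Cdk6 and Cdk2, and the inhibitors Cdkn2c, Cdkn2d, Cdkn1b and Cdkn1c. All 10 passed the filter on low counts, as did 11933 genes in all. Bone marrow cells of wild type, young adult C57Bl/6 N mice had been differentiated with macrophage colony-stimulating factor (M-CSF), the growth factor of Mφs. They were transfected by lipofection with a locked nucleic acid inhibitor and then exposed to IL-4 and IL-13, which drive the anti-inflammatory M2 state. In 3 libraries the inhibitor was directed against 5′tRF-Glu(CTC), a cleavage product of the 5′ part of the glutamate tRNA with anticodon CTC (αGlu), and in 3 it was a control (Ctr). The inhibitor is designed to bind the fragment and alters no gene, so αGlu is no knockout, and the mRNA libraries did not measure the fragment. The study describes the 3 libraries of a group as independent experiments. The labels do not say which animals they came from, so the p-values measure the spread between these libraries.

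D-type cyclins are made in response to growth factors and bind the kinases CDK4 and CDK6, which then phosphorylate the retinoblastoma protein and free E2F factors to switch on the genes of S phase. Inhibitors of the INK4 class, here p18 (Cdkn2c) and p19 (Cdkn2d), bind CDK4 and CDK6 and keep the cyclin away. Inhibitors of the CIP/KIP class, here p27 (Cdkn1b) and p57 (Cdkn1c), bind whole cyclin-kinase complexes and block CDK2 above all. In Mφs, M-CSF is a known inducer of Ccnd1, and cells leave the cycle as they mature.

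The inhibitor and its target are shown because the inhibitor is the only agent that differed between the groups. They are written 5′ to 3′ in DNA letters as designed. Capitals in the target mark the 20 bases with which the inhibitor pairs.
αGlu inhibitor: taaccactagaccaccaggg
targeted stretch of the tRNA fragment: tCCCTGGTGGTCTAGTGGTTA
The longest perfect stretch that the inhibitor could pair with in any annotated transcript of the 10 genes ranged from 6 to 9 bases. It was 9 bases for Ccnd1, Ccnd3 and Cdkn2d, and 19.7% of the tested genes held a stretch of at least 9 bases. It was 6 bases for Cdkn2c and 7 for Cdkn1c.

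Library depth was 17912831 to 30386653 exon reads. Levels in CPM below are the reads of a gene scaled to a common depth, with library sizes adjusted by trimmed mean of M-values (TMM). The library αGlu 1 stood apart: its Pearson correlation over genes was 0.929 with αGlu 2 and with αGlu 3 and 0.966 to 0.982 with the Ctr libraries, whereas αGlu 2 and αGlu 3 correlated at 0.992. The fold changes, calls and read ratios of the 10 genes are therefore given with and without αGlu 1, as are the counts of calls in the pathway lists. All 8 Mφ markers were above 1 CPM, and their summed level was 11850 to 13400 CPM in Ctr and 12590 to 18780 CPM in αGlu. Lyz2, with a mean of 7762 CPM, was the largest part of this sum, and single markers differed in direction. Cd68 fell to 1237 and 1144 CPM in αGlu 2 and αGlu 3, from 1809 CPM or more in every Ctr library. Mertk fell to 77.7 and 80.5 CPM, from at least 91.1. Cd14 rose to 293 and 240 CPM, from at most 30.1. Adgre1, Csf1r, Itgam, Lyz2 and Fcgr1 were likewise higher in both than in any Ctr library. Summed levels of the dendritic cell, lymphocyte and erythroid lists were at most 2.34 CPM in every library, those of the mast cell list at most 4.13 CPM and those of the fibroblast list at most 7.18 CPM. The 8 neutrophil markers summed to 106 to 160 CPM in Ctr and 186 to 609 CPM in αGlu. Nearly all of this was Csf3r, which had 183 CPM or less in the Ctr libraries and αGlu 1 and 536 CPM or more in αGlu 2 and αGlu 3, while the defining markers Ly6g and Retnlg were at 0 in all libraries; the part of Csf3r-expressing cells in the results was not tested. In bulk RNA, fewer cells with a transcript and less of it per cell cannot be told apart.

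With all 6 libraries, none of the 10 genes was called by the edgeR quasi-likelihood test, for which adjusted p had to be under 0.1 and the log2 fold change past 1 in either direction, and 0.0% of all tested genes were. The smallest adjusted p of any gene was 0.149, although 2943 genes had an unadjusted p under 0.05. By limma-voom 0 genes were called. DESeq2 called 1119 genes, among them 1 of the 10, Ccnd3, which was higher (DESeq2 adjusted p = 0.0837), and none of the 10 was called lower. Of all genes DESeq2 tested, 4.23% were called higher and 3.93% lower. At an unadjusted edgeR p under 0.05, 3 of the 10 were higher in αGlu (Cdkn1b, Cdkn2d and Ccnd3) and 0 were lower, against 12.7% of all genes higher and 11.9% lower. The αGlu and Ctr values did not overlap for 1 higher gene, Cdkn1b, and for 2 lower ones, Ccnd1 and Cdk4, against 14.2% and 15.9% of all genes. Without αGlu 1, edgeR called Ccnd1, Cdkn1c and Cdkn2c lower and Ccnd3 higher, in a background of 10.5% of genes called lower and 8.05% called higher.

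**Figure D1:**
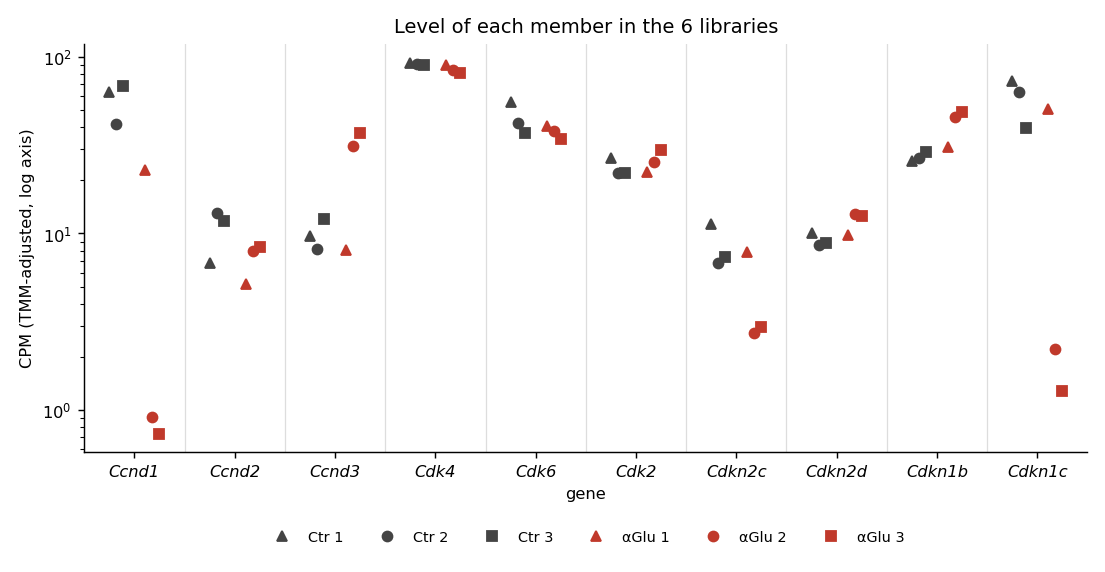
Level of the 10 genes in each library, as TMM-adjusted CPM on a log axis; grey symbols are Ctr, red symbols αGlu, and the symbol shape gives the library number. Ccnd1 and Cdkn1c stand at 0.734 to 2.20 CPM in αGlu 2 and αGlu 3, with αGlu 1 (triangle) at 22.8 and 51.0 CPM, whereas the 3 kinases lie in narrow bands.

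Ccnd1, which encodes cyclin D1 (ENSMUSG00000070348, GRCm38 chr7:144929931-144939925, minus strand), was the main D cyclin of the Ctr libraries. It stood at 63.2, 42.0 and 68.9 CPM in Ctr 1 to 3, against 22.8, 0.913 and 0.734 CPM in αGlu 1 to 3. These levels rest on 1390, 1004 and 1485 reads in Ctr and on 397, 29 and 20 reads in αGlu. All αGlu libraries lay below all Ctr libraries: the Ctr mean was 2.55 times the level of αGlu 1, 63.5 times that of αGlu 2 and 79.1 times that of αGlu 3. The log2 fold change was −2.89 ± 1.29 (SE, edgeR adjusted p = 0.225, n = 3 per group). Without αGlu 1 it was −6.13 ± 0.32 and passed (edgeR adjusted p = 5.54e-05). Over all 6 libraries 80 of the 11933 tested genes had a lower log2 fold change. The 3′ part of Ccnd1 overlaps LTO1 on the other strand, and the sources used here do not say whether counting used strand. LTO1 stood at 23.9 to 28.8 CPM in the 6 libraries, with αGlu inside the Ctr range.

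Ccnd3, which encodes cyclin D3 and is the D cyclin tied most to maturing blood cells (ENSMUSG00000034165, GRCm38 chr17:47505051-47599691, plus strand), went the opposite way in 2 of the 3 αGlu libraries. It stood at 9.72, 8.15 and 12.1 CPM in Ctr, against 8.09, 31.4 and 37.1 CPM in αGlu 1 to 3. αGlu 1 was thus just below the lowest Ctr library, while αGlu 2 and αGlu 3 were above the highest. The log2 fold change was 1.36 ± 0.54 (SE, edgeR adjusted p = 0.196). Without αGlu 1 it was 1.78 ± 0.17 and passed (edgeR adjusted p = 0.00052). Bysl, which overlaps Ccnd3 on the other strand, stood at 12.2 to 13.7 CPM in Ctr, against 12.5, 20.3 and 17.5 CPM in αGlu 1 to 3, so it too was highest in αGlu 2 and αGlu 3. How reads of the overlap were assigned was not tested.

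Ccnd2, which encodes cyclin D2 (ENSMUSG00000000184, GRCm38 chr6:127125162-127152193, minus strand), stood at 6.77, 13.04 and 11.7 CPM in Ctr, against 5.16, 7.93 and 8.33 CPM in αGlu. The groups overlapped because Ctr 1 was lower than αGlu 2 and αGlu 3. Its log2 fold change was −0.55 ± 0.30 (SE, edgeR adjusted p = 0.287) and −0.38 ± 0.27 without αGlu 1 (edgeR adjusted p = 0.309), and it passed neither fit.

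Reads scaled to exon length and depth (RPKM) allow levels to be compared between genes, within the limit of the length used. The lengths behind the deposited RPKM followed all annotated exons together. These span 8775 bases for Ccnd3, whose longest transcript has 3858, and 4709 for Ccnd1, whose longest has 3740. Shares, sums and orders across genes therefore depend on this choice of length, and the level of a single gene between libraries does not. The 3 D cyclins together had 14.3, 9.98 and 15.8 RPKM in Ctr and 5.75, 4.52 and 5.29 RPKM in αGlu, so the summed level was lower in every αGlu library. Ccnd1 made up 88.0%, 79.4% and 84.8% of it in Ctr. Its share was 76.7% in αGlu 1 and 4.21% and 2.96% in αGlu 2 and αGlu 3. The share of Ccnd3 was 7.27%, 8.27% and 7.97% in Ctr, 14.6% in αGlu 1, and 77.5% and 80.3% in αGlu 2 and αGlu 3. The leading D cyclin transcript was thus Ccnd1 in 4 libraries and Ccnd3 in the other two. Ccnd2 made up 4.72% to 12.4% in Ctr and 8.70% to 18.3% in αGlu. The log2 ratio of Ccnd3 to Ccnd1 reads averaged −2.52 ± 0.17 (SD, n = 3) in Ctr and was −1.49, 5.08 and 5.63 in αGlu 1 to 3, with no overlap. The difference in means was 5.59 (two-sided exact permutation p = 0.1, the smallest that 3 against 3 libraries allow; adjusted over the 6 gene pairs compared, 0.2), and 7.88 without αGlu 1. The log2 ratio of Ccnd3 to Ccnd2 reads differed by 1.63 (exact permutation p = 0.1, adjusted 0.2), also without overlap, and by 2.11 without αGlu 1. That of Ccnd2 to Ccnd1 differed by 3.96 and the groups overlapped (exact permutation p = 0.2, adjusted 0.24); without αGlu 1 it differed by 5.77. With 2 against 3 libraries each of these had an exact permutation p of 0.2.

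**Figure D2:**
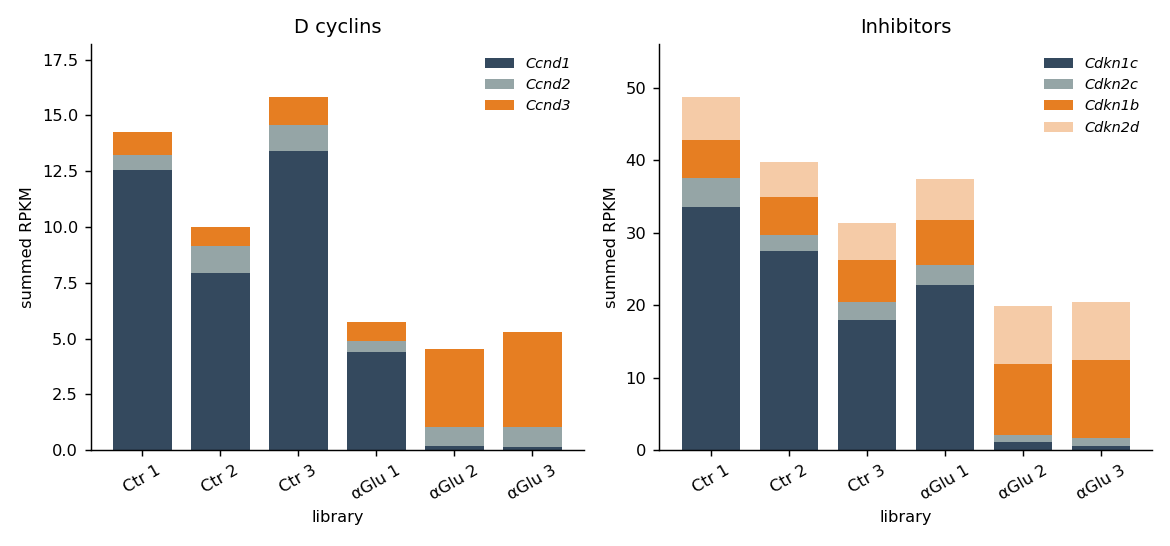
Summed RPKM of the D cyclins (left) and of the 4 inhibitors (right) in each library, stacked by gene. Ccnd1 fills 76.7% or more of the D cyclin bar in Ctr and αGlu 1, and Ccnd3 77.5% or more in αGlu 2 and αGlu 3; in the right panel Cdkn1c fills at least 57.1% in the first 4 bars and at most 5.32% in the last 2.

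The kinases differed little. Cdk4 (ENSMUSG00000006728, GRCm38 chr10:127063534-127067920, plus strand), the main partner of D cyclins here by transcript level, stood at 93.0, 91.0 and 90.1 CPM in Ctr, against 89.7, 84.1 and 81.4 CPM in αGlu. Its groups did not overlap on this scale, but they overlapped in the deposited RPKM and under the 3 other scalings. The log2 fold change was −0.10 ± 0.07 (SE, edgeR adjusted p = 0.378) and −0.15 ± 0.07 without αGlu 1 (edgeR adjusted p = 0.145). Tspan31 overlaps Cdk4 on the other strand and stood at 98.0 to 114 CPM, so without strand a part of either gene's reads could belong to the other. Cdk6, the close relative of Cdk4 (ENSMUSG00000040274, GRCm38 chr5:3341485-3531008, plus strand), stood at 55.9, 42.2 and 36.9 CPM in Ctr and 40.8, 38.1 and 34.3 CPM in αGlu. Ctr 1 was the highest library and the other 5 lay between 34.3 and 42.2 CPM (log2 fold change −0.25 ± 0.17 SE, edgeR adjusted p = 0.357). Cdk2, which acts after the D cyclin kinases with cyclins E and A (ENSMUSG00000025358, GRCm38 chr10:128697939-128705031, minus strand), stood at 26.9, 22.2 and 22.04 CPM in Ctr and 22.4, 25.4 and 29.7 CPM in αGlu, with overlapping groups (log2 fold change 0.13 ± 0.14 SE, edgeR adjusted p = 0.581). Neither Cdk6 nor Cdk2 passed without αGlu 1 (edgeR adjusted p = 0.199 and 0.215). Per length, the 3 kinases summed to 32.1 ± 2.11 RPKM in Ctr and 31.8 ± 0.637 RPKM in αGlu (SD, n = 3), and Cdk4 made up 77.5% to 81.8% of this sum in all libraries. The log2 ratio of Cdk6 to Cdk4 reads differed by −0.13 (exact permutation p = 0.7), and by −0.15 without αGlu 1. Summed RPKM of Cdk4 and Cdk6 per RPKM of D cyclins were 2.14, 2.76 and 1.76 in Ctr and 4.84, 6.21 and 5.22 in αGlu, with no overlap between groups. Summed RPKM of the 4 inhibitors per RPKM of D cyclins were 3.42, 3.99 and 1.98 in Ctr and 6.51, 4.41 and 3.87 in αGlu, and here the groups overlapped.

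Of the INK4 inhibitors, Cdkn2c was the lower and Cdkn2d the higher in αGlu 2 and αGlu 3. Cdkn2c, which encodes p18 (ENSMUSG00000028551, GRCm38 chr4:109660876-109667189, minus strand), stood at 11.4, 6.81 and 7.33 CPM in Ctr, against 7.86, 2.74 and 2.93 CPM in αGlu 1 to 3. αGlu 1 lay inside the Ctr range, and αGlu 2 and αGlu 3 below it. The log2 fold change was −0.93 ± 0.47 (SE, edgeR adjusted p = 0.26), and without αGlu 1 it was −1.59 ± 0.27 and passed (edgeR adjusted p = 0.00485). Cdkn2d, which encodes p19 (ENSMUSG00000096472, GRCm38 chr9:21288410-21291407, minus strand), stood at 9.995, 8.61 and 8.82 CPM in Ctr, against 9.87, 12.8 and 12.5 CPM in αGlu. Again αGlu 1 was inside the Ctr range and the other αGlu libraries outside it, here above. Its log2 fold change was 0.36 ± 0.14 (SE, edgeR adjusted p = 0.19) and 0.47 ± 0.11 without αGlu 1, where the adjusted edgeR p of 0.0173 went with a change under the fold limit. The log2 ratio of Cdkn2d to Cdkn2c reads averaged 0.14 ± 0.28 in Ctr, against 1.55 ± 1.06 in αGlu (SD, n = 3), with αGlu 1 inside the Ctr range (exact permutation p = 0.2, adjusted 0.24). The difference was 1.41, and 2.02 without αGlu 1.

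The CIP/KIP inhibitors also parted. Cdkn1b, which encodes p27 (ENSMUSG00000003031, GRCm38 chr6:134920401-134925513, plus strand), stood at 25.8, 26.7 and 28.8 CPM in Ctr, against 31.1, 45.9 and 48.8 CPM in αGlu 1 to 3. All 3 αGlu libraries were above all Ctr libraries, αGlu 1 by the least. It had the smallest p of the 10 genes (edgeR quasi-likelihood adjusted p = 0.158), with a log2 fold change of 0.63 ± 0.18 (SE). Without αGlu 1 the change was 0.80 ± 0.08 (edgeR adjusted p = 0.000593), under the fold limit of the call. The log2 ratio of Cdkn1b to Ccnd1 reads was −1.07 ± 0.36 (SD, n = 3) in Ctr and 0.45, 5.63 and 6.02 in αGlu 1 to 3, with no overlap (exact permutation p = 0.1, adjusted 0.2). The difference was 5.1, and 6.89 without αGlu 1. Per length, Cdkn1b was above Ccnd1 in every αGlu library and below it in every Ctr library.

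Cdkn1c, which encodes p57 and is an imprinted gene expressed from the maternal copy (ENSMUSG00000037664, GRCm38 chr7:143458339-143461050, minus strand), had the most divided αGlu values. It stood at 73.2, 63.1 and 39.8 CPM in Ctr, against 51.0, 2.20 and 1.28 CPM in αGlu 1 to 3, from 1612, 1510 and 858 reads in Ctr and 890, 70 and 35 reads in αGlu. αGlu 1 lay inside the Ctr range and αGlu 3 was 45.7 times below the Ctr mean. The log2 fold change of −1.72 ± 1.32 (SE, edgeR adjusted p = 0.42) had the largest standard error of the 10. Without αGlu 1 it was −5.06 ± 0.37 and passed (edgeR adjusted p = 0.000208).

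**Figure D3:**
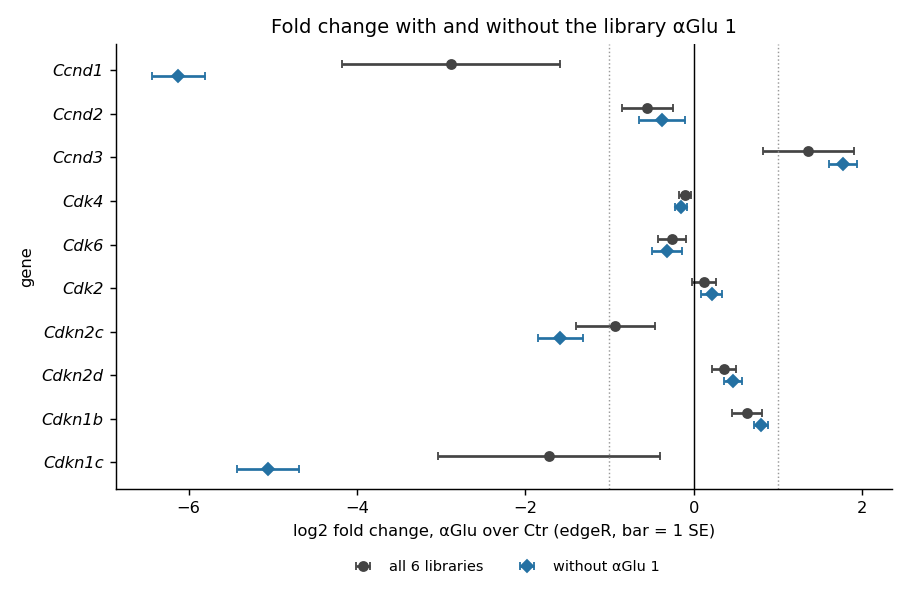
Log2 fold change, αGlu over Ctr, of the 10 genes by edgeR with all 6 libraries (grey circles) and without αGlu 1 (blue diamonds); bars are 1 SE and dotted lines the fold limit of the call. Without αGlu 1, Ccnd1 moves from −2.89 to −6.13 and Cdkn1c from −1.72 to −5.06, and no gene changes its direction.

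Per length, Cdkn1c was the highest of the 10 genes in Ctr at 26.3 ± 7.90 RPKM, with Cdk4 next at 25.7 RPKM, and the ranges of these neighbours overlapped. Ccnd1 followed in Ctr at 11.3 RPKM, with a range apart from those of its neighbours Cdk4 and Cdkn1b. The order in αGlu differed between libraries. Cdk4 was highest in each, at 25.1 to 25.4 RPKM. In αGlu 1 it was followed by Cdkn1c at 22.8 RPKM and Cdkn1b at 6.23 RPKM, with Ccnd1 at 4.41 RPKM below Cdkn2d. In αGlu 2 and αGlu 3 it was followed by Cdkn1b at 9.88 and 10.8 RPKM, and Ccnd1 was the lowest of the 10 genes at 0.190 and 0.156 RPKM. The 4 inhibitors summed to 48.8, 39.8 and 31.3 RPKM in Ctr and to 37.5, 19.9 and 20.5 RPKM in αGlu, with αGlu 1 inside the Ctr range. Cdkn1c made up 68.9%, 69.1% and 57.1% of the sum in Ctr and 61.0%, 5.32% and 3.09% in αGlu 1 to 3. Cdkn1b made up 10.9%, 13.1% and 18.5% in Ctr and 16.6%, 49.6% and 52.5% in αGlu, and Cdkn2d 12.2% to 16.4% in Ctr and 15.3%, 40.0% and 39.1% in αGlu. The leading inhibitor transcript was thus Cdkn1c in 4 libraries and Cdkn1b in the other two, the same division as for Ccnd1 and Ccnd3.

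Promoter sequence of RefSeq (GRCm38.p6, 250 bases before to 50 after a start) was at hand for 7 of the 10 genes. It was missing for Ccnd1, Ccnd2 and Cdkn1c, so motifs could not be sought in Ccnd1 and Cdkn1c, the genes that fell most. The windows of Ccnd3, Cdkn1b and Cdkn2d are shown because these genes were higher in αGlu 2 and αGlu 3, and the first of the Cdkn2c windows because it was lower. They are written 5′ to 3′ on the strand of the gene. Capitals mark the GC box GGGCGG, the box CCAAT, the ETS motif CCGGAAG and the FOXO motif GTAAACA, on either strand.
Ccnd3, upstream start, chr17:47504801-47505100, plus strand: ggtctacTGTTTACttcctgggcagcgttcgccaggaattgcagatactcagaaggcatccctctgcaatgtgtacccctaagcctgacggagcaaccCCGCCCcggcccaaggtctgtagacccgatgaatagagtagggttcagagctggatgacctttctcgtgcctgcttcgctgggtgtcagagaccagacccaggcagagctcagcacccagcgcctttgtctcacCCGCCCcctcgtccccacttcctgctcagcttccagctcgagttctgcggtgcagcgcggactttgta
Ccnd3, downstream start, chr17:47593217-47593516, plus strand: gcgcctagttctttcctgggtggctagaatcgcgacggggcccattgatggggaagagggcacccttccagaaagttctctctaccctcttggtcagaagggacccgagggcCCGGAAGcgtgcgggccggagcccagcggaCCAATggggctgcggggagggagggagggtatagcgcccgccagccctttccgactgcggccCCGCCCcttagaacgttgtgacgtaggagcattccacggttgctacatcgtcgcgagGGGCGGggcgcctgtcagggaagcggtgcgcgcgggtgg
Cdkn1b, chr6:134920151-134920450, plus strand: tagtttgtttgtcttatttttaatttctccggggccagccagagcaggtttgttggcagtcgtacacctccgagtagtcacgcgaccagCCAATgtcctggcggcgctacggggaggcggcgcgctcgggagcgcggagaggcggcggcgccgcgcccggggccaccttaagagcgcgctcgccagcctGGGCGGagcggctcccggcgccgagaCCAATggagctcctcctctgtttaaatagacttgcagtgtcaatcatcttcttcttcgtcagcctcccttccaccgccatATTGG
Cdkn2d, chr9:21291160-21291459, minus strand: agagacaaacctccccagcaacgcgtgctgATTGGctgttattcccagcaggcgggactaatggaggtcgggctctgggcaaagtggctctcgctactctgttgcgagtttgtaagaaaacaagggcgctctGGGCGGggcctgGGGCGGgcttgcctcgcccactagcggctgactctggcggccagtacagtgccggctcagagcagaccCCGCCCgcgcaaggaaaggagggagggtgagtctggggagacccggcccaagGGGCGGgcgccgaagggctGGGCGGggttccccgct
Cdkn2c, upstream start, chr4:109666707-109667006, minus strand: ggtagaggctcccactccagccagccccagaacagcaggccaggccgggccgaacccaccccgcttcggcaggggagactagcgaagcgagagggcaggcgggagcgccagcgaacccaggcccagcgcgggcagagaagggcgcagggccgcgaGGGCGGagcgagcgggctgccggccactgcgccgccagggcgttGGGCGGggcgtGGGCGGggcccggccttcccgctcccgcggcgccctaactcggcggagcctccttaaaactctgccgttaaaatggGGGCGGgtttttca
GGGCGG occurred in all 5 windows, 5 times in that of Cdkn2d, and in 35.7% of the 32851 promoters of the table. The 5 windows held 59.3% to 73.3% G and C, against a median of 52.7% over all promoters. Whether the motif was more frequent than this base content gives was not tested. The GC box thus stood both before genes that were higher and before Cdkn2c, which was lower. The other window of Cdkn2c, at its downstream start, held no GC box, but the CCAAT box and an E-box once each. CCAAT, which 37.4% of promoters hold, occurred 3 times in the window of Cdkn1b, once in that of Cdkn2d and once in the downstream window of Ccnd3, and was not found in the upstream windows of Ccnd3 and Cdkn2c. CCGGAAG (8.86% of promoters) was found in the downstream window of Ccnd3, and GTAAACA (3.65%) in the upstream one. The window of Cdk4, whose level differed little, held CACGTG, the E-box that MYC and related factors bind, 4 times. That motif was found at least once in 7.15% of all promoters and 4 or more times in 8 of the 32851.

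The other genes of the pathway were read from 6 lists, of which 0 genes were called with all libraries. The S phase and proliferation list was the most one-sided: 13 of 16 genes had an unadjusted p under 0.05 and were lower and 0 were higher, against 11.9% and 12.7% of all genes. The groups did not overlap for 12, all lower, against 15.9% of all genes. Both counts include Cdc6 and Ticrr, at 0.229 to 0.661 and 0.293 to 0.574 CPM in αGlu. These passed the low-count filter through the Ctr libraries alone, so as tested genes they could only come out lower. The median log2 fold change of the list was −0.70, against 0.02 over all genes tested. The 3 with the smallest p were Rrm2, a subunit of ribonucleotide reductase, and Mcm7 and Mcm6, subunits of the replicative helicase. Rrm2 stood at 12.6, 4.35 and 8.86 CPM in Ctr, against 0.746, 1.04 and 1.06 CPM in αGlu (log2 fold change −3.16 ± 0.44 SE, edgeR adjusted p = 0.149). Mcm7 and Mcm6 had log2 fold changes of −1.15 ± 0.18 and −0.52 ± 0.09 SE (edgeR adjusted p = 0.149 for both). The place of αGlu 1 differed between genes of the list. For Mcm7 the αGlu libraries stood together at 8.89, 9.07 and 8.66 CPM, against 16.8 to 25.2 CPM in Ctr. For Pcna, the sliding clamp of DNA polymerase and the most abundant of the list, αGlu 1 stood at 327 CPM between 448 to 505 CPM in Ctr and 125 and 120.3 CPM in αGlu 2 and αGlu 3. For Cdt1, a licensing factor of replication, αGlu 1 at 27.2 CPM lay inside the Ctr range and αGlu 2 and αGlu 3 at 16.4 and 15.5 CPM below it. The exception by direction was Mki67, the gene of the Ki-67 antigen, at 49.2, 13.2 and 18.8 CPM in Ctr and 11.9, 108 and 138 CPM in αGlu, with overlapping groups (log2 fold change 1.67 ± 0.92 SE, edgeR adjusted p = 0.29). Pcna, Cdt1, Mki67, Cdc6 and Ticrr are named after their values were seen. Without αGlu 1, 6 of the 16 were called lower by edgeR and 1, Mki67, higher, against 10.5% and 8.05% of all genes, so that the 1 higher call is near the share of all genes. Ticrr is among the 6, and in this fit too it passed the filter through the Ctr libraries alone.

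Of 15 other G1 and S phase regulators 10 could be tested. At an unadjusted p under 0.05, 2 were higher and 3 lower, against 12.7% and 11.9% of all genes, and the median log2 fold change was −0.09. Without αGlu 1, 13 could be tested and edgeR called 5 lower and 0 higher, against 10.5% and 8.05% of all genes. Of these calls, only Ccna2 and Ccne2 were among the 10 genes tested with all libraries. The other calls were of genes at 1.27 CPM or less that passed the low-count filter through the Ctr libraries alone. They could therefore only come out lower. The same limit holds for Ccna2 with and without αGlu 1, and for Ccne2 with all libraries. In those fits these genes too passed the low-count filter through the Ctr libraries alone. With all libraries, the lower ones at an unadjusted p under 0.05 were Ccna2 (cyclin A2), Ccne2 (cyclin E2) and Cdc25b, a phosphatase that activates CDKs. Each was without overlap between groups. Ccna2 stood at 10.4, 3.09 and 4.83 CPM in Ctr and 0.746, 0.378 and 0.147 CPM in αGlu, and Ccne2 at 3.86, 1.80 and 2.97 CPM in Ctr and 0.229, 0.535 and 0.697 CPM in αGlu (log2 fold changes −3.91 ± 0.71 and −2.51 ± 0.47 SE, edgeR adjusted p = 0.149 for both). Cdc25b had a log2 fold change of −0.74 ± 0.15 SE (edgeR adjusted p = 0.149).

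Of the 19 pocket proteins, E2F and DREAM factors, 2 were higher and 4 lower at an unadjusted p under 0.05, with a median log2 fold change of −0.01; 12.7% and 11.9% of all genes were. Without αGlu 1, edgeR called 1 higher and 4 lower, against 8.05% and 10.5% of all genes. The 3 with the smallest p were the repressive E2F factors E2f7, E2f6 and E2f8. E2f7 had 58 reads over the Ctr libraries and 0 over the αGlu libraries, which makes it at least 20.5-fold lower if 3 reads are allowed over the αGlu group. It passed the low-count filter through the Ctr libraries alone, so as a tested gene it could only come out lower. E2f6 stood at 21.7 to 22.8 CPM in Ctr and 14.7 to 17.03 CPM in αGlu, and E2f8 at 9.001 to 12.1 and 3.59 to 5.74 CPM (log2 fold changes −0.52 ± 0.09 and −1.23 ± 0.21 SE, edgeR adjusted p = 0.149 for both). In all 3 genes αGlu 1 lay below the Ctr range.

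Of 19 genes for folding, assembly and turnover of D cyclins and CIP/KIP inhibitors, 1 was higher and 2 lower at an unadjusted p under 0.05, with a median of −0.07, and without αGlu 1 edgeR called 0 of them. The genes at an unadjusted p under 0.05 with all libraries were Rbx1, the RING subunit of cullin ligases (log2 fold change 0.33 ± 0.08 SE), Cks1b, a cofactor in the turnover of p27 (−0.71 ± 0.24 SE), and Cks2 (−0.69 ± 0.28 SE). Their edgeR adjusted p were 0.156, 0.174 and 0.2. Of the 28 tested genes of M-CSF signalling and upstream factors, 3 were higher and 6 lower, with a median of 0.01, and without αGlu 1 edgeR called 3 higher and 5 lower. Klf4, a factor of Mφ maturation, had a log2 fold change of −0.87 ± 0.22 SE and Stat3, a cytokine-activated transcription factor, of 0.75 ± 0.20 SE (edgeR adjusted p = 0.156 and 0.157), each without overlap between groups. Of the 24 tested cyclins and CDKs outside the G1/S step, 3 were higher and 4 lower, with a median of 0.05, and without αGlu 1 edgeR called 0 higher and 1 lower. The shares of all genes beside the counts of these 3 lists are 12.7% higher and 11.9% lower at an unadjusted p under 0.05, and 8.05% and 10.5% called without αGlu 1. The smallest p belonged to Ccnk (0.51 ± 0.14 SE), Ccny (−0.27 ± 0.08 SE) and Ccng1 (0.40 ± 0.12 SE; edgeR adjusted p = 0.157, 0.159 and 0.16).

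**Figure D4:**
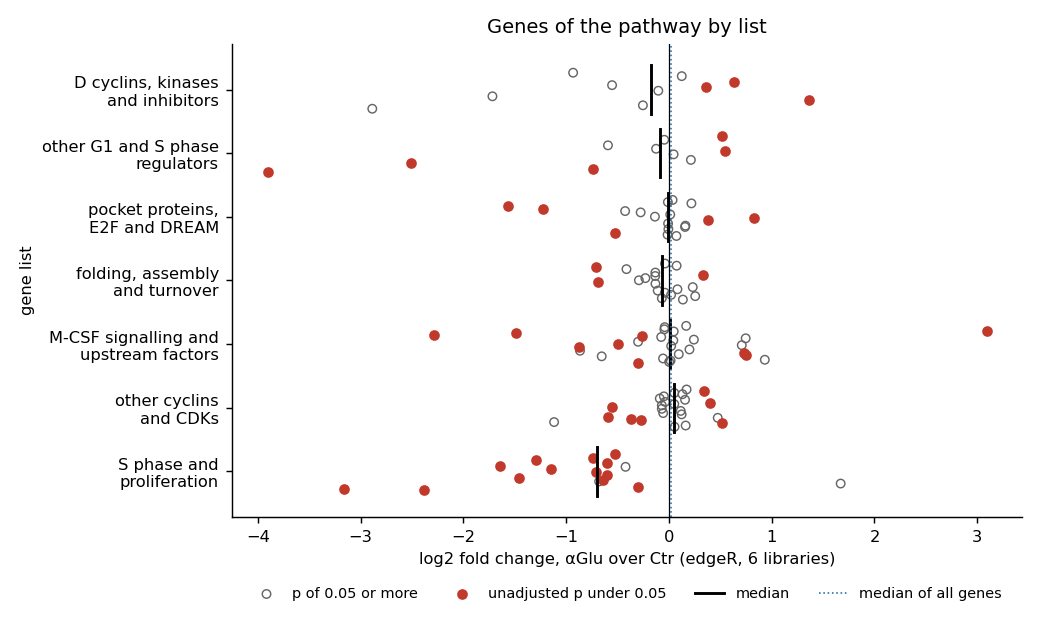
Log2 fold change, αGlu over Ctr, of each tested gene of the 10-gene set and of the 6 pathway lists, by edgeR with 6 libraries; filled points have an unadjusted p under 0.05, black bars are medians and the dotted line is the median of all genes. E2f7, with no αGlu read, is not drawn. The S phase list lies to the left of 0 at a median of −0.70 with Mki67 alone above 0, and the medians of the other lists lie between −0.18 and 0.05.

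The genes with the level pattern most like each D cyclin were sought among the 5028 tested genes whose log2 CPM averaged 5 or more. The measure was Pearson's r of log2 CPM over the 6 libraries. For Ccnd1 and Ccnd3 the libraries fall into αGlu 2 and αGlu 3 on one side and the rest on the other, and all genes with that division share it. For Ccnd1 these were Etfb, Acaa2 and Zdhhc9 (r = 0.998, 0.998 and 0.997). Etfb and Acaa2, both of mitochondrial fatty acid oxidation, stood at 44.3 to 50.3 and 45.1 to 47.9 CPM in Ctr, at 38.9 and 39.2 CPM in αGlu 1, and at 18.3 to 21.97 CPM in αGlu 2 and αGlu 3. For Ccnd3 they were Lpcat2, Pabpc1 and Picalm (r = 0.999, 0.997 and 0.994). Lpcat2, a lysophospholipid acyltransferase, stood at 29.2, 25.3 and 37.5 CPM in Ctr and 23.5, 104 and 133 CPM in αGlu. For Ccnd2 they were Psmc3, Sptlc1 and Nop2, with lower r of 0.969, 0.963 and 0.958. Like Ccnd2, Psmc3 was lowest in αGlu 1 and Ctr 1, at 130 and 131 CPM, against 133 to 137 CPM in the other libraries. Its span was thus narrow, whereas Ccnd2 spanned 5.16 to 13.04 CPM. All these genes were picked for the highest r among 5028 over only 6 libraries. How high r would come without a shared pattern was not tested.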

How the data were processed

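Messenger RNA of M2-polarized bone marrow-derived Mφs was sequenced from stranded mRNA libraries, 3 per group. Groups and library numbers were taken from the library names in the labels. The QIAGEN RNA-seq Analysis Portal was used by the authors on the reads, and the submitters' processing notes name the build GRCm38. The sources used here do not give the annotation, the strand setting or the handling of multi-mapping reads. The authors deposited whole-number counts of exon reads per gene, without normalization, and RPKM values, in which exon length and depth are divided out. The deposited TPM and CPM columns were not used. Gene positions came from GENCODE M21 on GRCm38, which held 41474 of the 41549 gene identifiers, and promoters and motif shares from RefSeq.

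Tests used the counts. Genes were filtered with filterByExpr (minimum count 10, minimum total 15) and fitted with edgeR 4.0.16 in R 4.3.3, with TMM factors, a quasi-likelihood test on the group alone and Benjamini-Hochberg adjustment over 11933 genes. Calls needed an adjusted p under 0.1 and a log2 fold change past 1 in either direction. The standard error is the fold change over the square root of its F. RPKM served for levels between genes. Read ratios of 6 gene pairs, with 0.5 added to each count, were compared by a two-sided exact permutation test.

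Genes named are all 10 of the set, the 3 of smallest p in each pathway list and the 3 of highest correlation with each D cyclin; others are said to be chosen after their values were seen. For 1 gene that this rule named, the values are not given. The set and the lists were chosen with earlier results of these data known. Alternatives were DESeq2 1.42.0, limma-voom 3.58.1, other scalings, filters and thresholds, the replicate number as a block, and each library left out. Depth limits low genes most: the 20 to 29 reads of Ccnd1 in αGlu 2 and αGlu 3 are few.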

Additional observations from a re-analysis of the deposited data

How the results depend on the processing

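For the 10 genes, 14 alternatives each gave 140 log2 fold changes: 135 kept direction and side of the threshold, 5 kept direction and passed the threshold, and 0 reversed. The number of genes called was 0 by the edgeR test, 1119 by DESeq2, 993 at an adjusted p under 0.2, and 0 to 2290 with 1 library left out. For the 10 genes the counts were 0, 1 by DESeq2, 1 at an adjusted p under 0.2 and 0 to 4 with 1 library left out, and for the pathway lists 0, 17, 14 and 0 to 26; the highest of each range came without αGlu 1. With the replicate number as a block, 17 genes were called over all genes and 0 of the 10, and the log2 fold changes of Ccnd1 and Cdkn1c were −4.36 and −3.44; by limma-voom they were −4.90 and −3.89, against −2.89 and −1.72, and passed in neither. Same-numbered libraries deviated together with correlations of 0.076, 0.065 and 0.154, and differently numbered ones with −0.112 to 0.046. The same-numbered values were thus the highest, though low. The labels name no pairs, so the main fit did not take the numbers as pairs. Whether same-numbered libraries share an origin was not tested. Genes of the set with no overlap between groups numbered 3 to 7 with 1 library left out: 6 without Ctr 1, 5 without Ctr 3 and 7 without αGlu 1, where 37.7%, 42.0% and 65.8% of all genes had no overlap, against 30.2% with all libraries, so nothing about the set is read from the increase. The log2 ratio of Cdk6 to Cdk4 differed by −0.13 and ranged from −0.25 to 0.024 with 1 library left out, turning to 0.024 without Ctr 1. Scaling by library size alone moved the median log2 fold change of all genes from 0.02 to 0.10. The cause of these differences was not tested. With 3 libraries per group, of which αGlu 1 stood apart, the spread within αGlu sets the precision, and the values without αGlu 1 rest on 2 libraries.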

Other observations

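Some genes outside the naming rule were looked up after their values were seen. Cdkn1a, the p53-responsive CIP/KIP inhibitor p21, stood at 122.8, 182 and 189 CPM in Ctr, against 226, 266 and 215 CPM in αGlu, so all αGlu libraries, αGlu 1 included, lay above all Ctr libraries (log2 fold change 0.52 ± 0.19 SE, edgeR adjusted p = 0.181, and 0.54 without αGlu 1, adjusted p = 0.0758). Myc, a growth factor-induced transcription factor, stood at 30.2, 23.0 and 26.7 CPM in Ctr, against 12.8, 1.79 and 2.31 CPM in αGlu (log2 fold change −2.28 ± 0.77 SE, edgeR adjusted p = 0.17, and −3.71 without αGlu 1, adjusted p = 4.95e-05). Ets2, a target of Ras signalling, stood at 10.9 to 11.8 CPM in Ctr, 9.35 CPM in αGlu 1, and 134 and 145 CPM in αGlu 2 and αGlu 3 (log2 fold change 3.09 ± 0.93 SE, edgeR adjusted p = 0.16, and 3.62 without αGlu 1, adjusted p = 5.15e-06). Csf1r, the receptor for M-CSF, stood at 2400 to 2771 CPM in Ctr and 2481 to 3055 CPM in αGlu (log2 fold change 0.10 ± 0.17 SE, edgeR adjusted p = 0.734, and 0.17 without αGlu 1, adjusted p = 0.274).

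Ccnd1 and Cdkn1c, the genes of the set whose log2 fold changes lay furthest from 0, lie on the same chromosome, 1468880 bases apart. Of the 15 tested genes between them, 11 had a log2 fold change below 0 without αGlu 1, where the median of all genes was 0.01. Among the 15, 1 was below −2, Dhcr7, the last enzyme of cholesterol synthesis. E230032D23Rik lay as far on the other side, at 2.18 without αGlu 1. With all libraries 6 of the 15 were lower without overlap, 2 were higher without overlap and 7 overlapped. Over all genes tested, 15.9% were lower and 14.2% higher without overlap. Whether the interval as a whole differed from other genes was not tested. Dhcr7 stood at 79.6, 62.9 and 57.6 CPM in Ctr, against 34.0, 14.9 and 14.01 CPM in αGlu (log2 fold change −1.68 ± 0.38 SE, and −2.21 without αGlu 1). Several genes in between differed little, such as Ppfia1 at 64.7 to 70.7 CPM in Ctr and 64.1 to 72.4 CPM in αGlu. The 2 higher ones were E230032D23Rik, which overlaps its neighbours in position, at 1.59 to 2.17 CPM in Ctr and 2.24 to 9.003 CPM in αGlu, and Tnfrsf23, at 19.9 to 21.98 CPM in Ctr and 24.8 to 32.1 CPM in αGlu. Kcnq1ot1, the imprinted antisense RNA of the Cdkn1c domain, stood at 2.65 to 5.13 CPM in Ctr and 2.05 to 4.65 CPM in αGlu (log2 fold change −0.47 ± 0.42 SE).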
